A study of Mus musculus with 12 samples.

Results

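The genes described here encode the oxidative phosphorylation system, the 4 electron transport complexes and the ATP synthase of the inner mitochondrial membrane, together with the assembly factors of complex I that carry the Nduf name. They were chosen by name. A gene belonged to the set when the symbol of its probe set began with Nduf, Uqcr, Cox4, Cox5, Cox6, Cox7, Cox8 or Atp5, or was Sdha, Sdhb, Sdhc, Sdhd or Cyc1. The rule found 90 genes among the 19945 measured, and 114 probe sets belonged to them. A gene with several probe sets was represented by the one with the highest mean signal. Of the 90 genes 82 encode subunits, 7 encode assembly factors of complex I (Ndufaf1 to Ndufaf7), which are not part of the finished enzyme, and Cox7a2l acts in joining complexes III and IV into supercomplexes. The subunits that mitochondrial DNA encodes were not analysed here. Probe sets that carried several symbols, among them those of Cox7c and Ndufb4, were left out.

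Complexes I and II pass electrons from NADH and succinate to ubiquinone, complex III hands them to cytochrome c, and complex IV hands them to oxygen. Complexes I, III and IV pump protons as they do so, and the ATP synthase makes ATP from the returning flow. In macrophages, LPS is known to shift ATP production towards glycolysis, while complex II goes on oxidising succinate. HDAC3 is a histone deacetylase that works within the NCoR and SMRT corepressor complexes and is known as a regulator of inflammatory genes and of genes of energy metabolism.

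RNA of primary macrophages grown from the bone marrow of C57BL/6 mice was measured on whole-transcript gene arrays on the 7th day of culture in medium conditioned by L929 cells. The 4 groups were HDAC3 +/- cells without treatment, HDAC3 +/- cells given LPS (100 ng/ml) for 4 h, HDAC3 -/- cells without treatment and HDAC3 -/- cells given the same LPS, with 3 arrays each. The controls are named wild type in the labels but carry 1 disrupted copy of Hdac3, so no group had both copies. How the gene was deleted, in which cells, and the age of the animals are not stated in the labels. Separate animals or cultures behind the 3 arrays of a group are not stated either, so a p-value here reflects only how far these arrays spread, which may in part be technical. In bulk RNA, fewer cells of a type and less RNA per cell cannot be told apart.

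Hdac3 itself had log2 signals of 9.42, 9.10 and 8.98 on the untreated +/- arrays, 8.90, 9.02 and 8.66 on the +/- arrays with LPS, 7.39, 7.52 and 7.39 on the untreated -/- arrays and 6.91, 7.25 and 7.18 on the -/- arrays with LPS. The genotype groups did not overlap, and the -/- minus +/- difference of Hdac3 was -1.74 ± 0.153 in untreated (SE, adjusted p = 1.66e-05 by limma) and -1.75 ± 0.153 in LPS-treated cells (adjusted p = 5.9e-06). All 10 macrophage markers listed were measured, and their mean log2 signal lay between 10.6 and 11.3 on every array, while the means of 8 lists for other cell types lay between 3.12 and 5.69. The macrophage mean was itself lower in -/- cells, at 10.9 untreated and 10.6 to 10.7 after LPS against 11.2 to 11.3 and 10.9 to 11.1 in +/- cells. The part of this shift in the results was not tested. The interquartile range of the arrays, the width of the middle of their signals, was 3.19 and 3.20 on LPS-treated +/- arrays 2 and 3 and 3.39 to 3.80 on the other 10. By the signals of Y-linked genes and Xist, replicate 1 was male in both +/- groups and all other arrays were female, so each +/- group came from more than 1 animal.

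Of the 90 genes 67 lay in the top 25% of all genes by mean signal, and 82 passed a filter on dim probe sets. Cox7b2, a testis isoform, lay below the lower quartile on all 12 arrays, and Cox8b, a heart and muscle isoform, on 6. Because the set is bright, its values are given beside those of the 10697 genes that passed the same filter (the brighter genes) as well as beside all genes. Over the 90 genes the +/- arrays had median log2 signals of 9.06, 8.94 and 8.84 without LPS and 8.78, 8.87 and 8.55 with LPS. The -/- arrays had 9.22, 9.03 and 9.13 without LPS and 8.97, 8.97 and 9.13 with LPS. LPS-treated +/- array 3 had the lowest median and untreated -/- array 1 the highest.

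**Figure D1:**
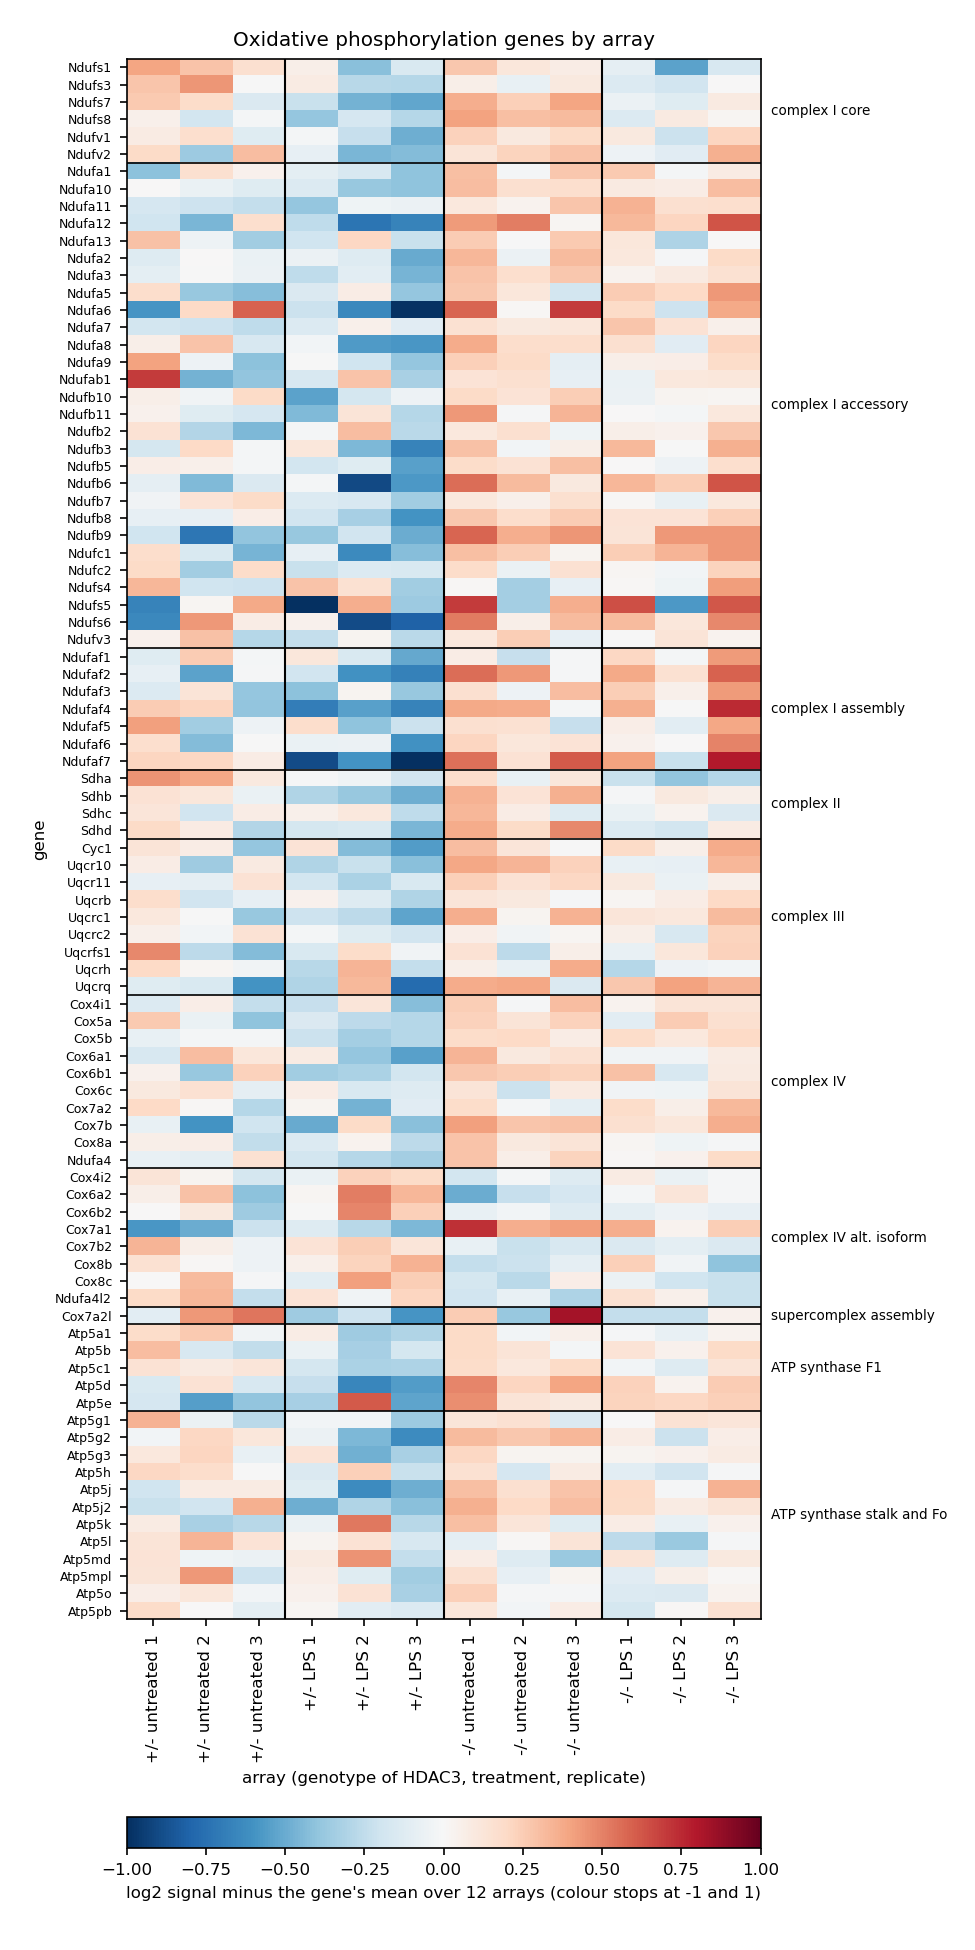
Each row is 1 of the 90 genes, ordered by role, and each column 1 of the 12 arrays; colour shows the log2 signal minus the mean of that gene over all arrays, and black lines part the groups and the roles. Blue dominates the complex I rows on LPS-treated +/- arrays 2 and 3, red dominates both -/- groups there, and the alternative isoforms of complex IV, apart from Cox7a1, run the other way. These isoforms are dimmer than the general subunits of complex IV.

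Nuclear respiratory factor 1 (NRF1) and the ETS factor GABP are the textbook activators of this gene set, so the promoters were read for their sites. RefSeq promoters of GRCm38.p6 were found for 73 of the 90 genes (78 promoters), and the 250 bases before the start were searched on both strands for the NRF1 site (GCGC, any 2 bases, GCGC) and the ETS core CCGGAAG. The NRF1 letters were in 16 of 78 promoters (20.5%), against 1635 of 32851 promoters of all genes (4.98%). The ETS letters were in 13 (16.7%), against 2269 (6.91%). The median GC content was 56.8% in the promoters of the set and 52.4% in all promoters, and no pair of sites overlapped. Together 25 genes had either site, and 3 of these, Atp5h, Cox6a1 and Sdhd, had both.

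The promoters of 4 called genes, chosen by hand, are shown 5′ to 3′ on the strand of the gene, each ending at the base before the start. Ndufaf7 and Ndufaf4 had the largest differences between genotypes after LPS, Ndufb6 is a membrane arm subunit that differed there too, and Sdha fell with LPS in +/- cells. Capitals mark the sites. Ndufaf4 (chr4:24897833-24898082, plus strand) held the NRF1 letters at -113 to -104. Ndufb6 (chr4:40279422-40279671, minus strand) held the ETS core, read on the other strand, at -232 to -226. Sdha (chr13:74350241-74350490, minus strand) held the NRF1 letters at -98 to -89, -55 to -46 and -10 to -1. Ndufaf7 (chr17:78936885-78937134, plus strand) held neither.
Ndufaf4: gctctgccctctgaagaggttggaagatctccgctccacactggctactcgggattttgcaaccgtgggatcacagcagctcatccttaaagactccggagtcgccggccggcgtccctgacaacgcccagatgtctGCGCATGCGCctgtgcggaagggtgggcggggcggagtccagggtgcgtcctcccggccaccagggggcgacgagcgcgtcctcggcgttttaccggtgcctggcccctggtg
Ndufb6: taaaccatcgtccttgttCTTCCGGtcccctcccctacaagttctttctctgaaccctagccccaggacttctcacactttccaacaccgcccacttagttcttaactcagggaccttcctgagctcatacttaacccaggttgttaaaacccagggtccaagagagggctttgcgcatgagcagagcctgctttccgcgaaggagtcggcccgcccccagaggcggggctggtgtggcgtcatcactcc
Sdha: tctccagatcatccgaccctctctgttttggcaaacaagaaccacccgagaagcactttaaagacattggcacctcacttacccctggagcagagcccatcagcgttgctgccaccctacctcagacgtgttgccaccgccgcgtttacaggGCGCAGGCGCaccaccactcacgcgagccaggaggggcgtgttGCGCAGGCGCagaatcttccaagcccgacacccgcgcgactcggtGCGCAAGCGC
Ndufaf7: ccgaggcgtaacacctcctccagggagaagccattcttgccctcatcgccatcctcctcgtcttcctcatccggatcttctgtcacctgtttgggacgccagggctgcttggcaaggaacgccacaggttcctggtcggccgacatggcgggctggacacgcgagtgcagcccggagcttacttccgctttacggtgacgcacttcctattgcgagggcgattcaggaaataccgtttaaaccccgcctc

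The first comparison asked how oxidative phosphorylation genes responded to LPS in +/- macrophages. Most lay slightly lower after LPS, and a minority passed the test. With limma, 7 of the 90 genes fell and 0 rose at an adjusted p under 0.05 (Benjamini-Hochberg over all 19945 genes), which is 7.78% of the set against 15.5% of all genes that fell and 9.59% that rose. When dim genes were left out, 9 of 82 genes of the set fell (11%) beside 29.6% of the brighter genes, and 0 rose beside 13.2%. The 7 were the complex I assembly factors Ndufaf7 and Ndufaf4, the complex I core subunit Ndufs7, both catalytic subunits of complex II (Sdha and Sdhb) and the ATP synthase subunits Atp5c1 and Atp5g2. The median log2 difference over the 90 genes was -0.19, with 70 genes below 0 and 20 above, beside 0.08 over all genes and -0.19 over the brighter genes. With cyclic loess normalization the median of the set was -0.02 beside 0.01 over all genes, and the genes that rose made up 49.2% of all called genes in place of 38.3%. The groups did not overlap for 20 genes of the set that were lower after LPS and 1 that was higher, against 18.6% and 18.1% of all genes. The share of the brighter genes without overlap was not counted.

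Ndufaf7, an arginine methyltransferase that acts in the assembly of complex I, had log2 signals of 7.28, 7.27 and 7.14 without and 6.17, 6.47 and 5.78 with LPS in +/- cells. The groups lay far apart, and Ndufaf7 fell by 1.09 ± 0.236 (SE, 3 arrays a group; 2.13-fold; adjusted p = 0.00394 by limma). Ndufaf4, which acts early in the build-up of the complex I peripheral arm, had 7.11, 7.06 and 6.46 without and 6.16, 6.31 and 6.18 with LPS. It fell by 0.66 ± 0.209 (adjusted p = 0.0338 by limma), with untreated array 3 nearest to the treated ones. The other 5 assembly factors were also below 0 (-0.28 to -0.12) and did not pass.

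Among the 6 core subunits of complex I measured here, most of which carry the flavin or iron-sulfur clusters, all differences were negative, with a median of -0.38. Ndufs7, which binds the last iron-sulfur cluster before ubiquinone, had 9.87, 9.79 and 9.47 without and 9.38, 9.14 and 9.09 with LPS. It fell by 0.51 ± 0.14 (adjusted p = 0.0174 by limma), and the arrays of the groups did not overlap. Ndufs1, the largest core subunit, had 9.46, 9.35 and 9.22 without and 9.12, 8.65 and 8.91 with LPS, a difference of -0.45 ± 0.157 that missed the threshold (adjusted p = 0.0517) and passed with the replicate number as a block within genotype (adjusted p = 0.0427). None of the 28 accessory subunits, which surround the core and have no redox centre, passed in either direction (6 at an unadjusted p under 0.05), and their median was -0.20. Ndufa6 had the lowest difference among them, -0.69 ± 0.289, with 6.95, 7.75 and 8.14 without and 7.33, 6.90 and 6.55 with LPS, a wide spread among the untreated arrays.

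In complex II, the succinate dehydrogenase of the citric acid cycle, both catalytic subunits fell with LPS in +/- cells and neither membrane anchor passed. Sdha, the flavoprotein, had 11.14, 11.08 and 10.79 without and 10.68, 10.65 and 10.50 with LPS and fell by 0.39 ± 0.133 (adjusted p = 0.0446 by limma). Sdhb, the iron-sulfur subunit, had 9.22, 9.19 and 9.01 without and 8.78, 8.70 and 8.59 with LPS and fell by 0.45 ± 0.122 (adjusted p = 0.0157). Both pairs of groups were free of overlap. The membrane anchor Sdhc had 9.78, 9.46 and 9.73 without and 9.70, 9.76 and 9.40 with LPS, a difference of -0.03 ± 0.154 (adjusted p = 0.879). The second anchor, Sdhd, had 9.93, 9.82 and 9.44 without and 9.56, 9.59 and 9.28 with LPS, a difference of -0.26 ± 0.157 (adjusted p = 0.243). Whether the catalytic subunits and the anchors differed from each other was not tested.

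No gene of complex III or complex IV passed in this comparison (0 and 2 at an unadjusted p under 0.05). Their medians were -0.17 and -0.16. Cyc1, the cytochrome c1 of complex III, had 9.82, 9.77 and 9.31 without and 9.83, 9.26 and 9.13 with LPS, and the groups overlapped (-0.23 ± 0.193, adjusted p = 0.4 by limma). The 8 alternative isoforms of complex IV were all above 0, by 0.01 to 0.33, and none passed. By mean signal these 8 ranked at 6.9% to 62.3% of all genes, and the general subunits of complex IV at 91.3% or above. A part of signal level in this was not tested. Cox7a2l had 8.17, 8.71 and 8.82 without and 7.92, 8.07 and 7.69 with LPS, a difference of -0.67 ± 0.256 without overlap (adjusted p = 0.071), which passed with the replicate number as a block within genotype (adjusted p = 0.0293).

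In the ATP synthase, Atp5c1, the gamma subunit that turns inside the catalytic head, had 11.35, 11.30 and 11.33 without and 11.03, 10.89 and 10.90 with LPS. The arrays of each group lay close together, and Atp5c1 fell by 0.39 ± 0.117 (adjusted p = 0.0268 by limma). Atp5b, the catalytic beta subunit, had 12.37, 11.91 and 11.82 without and 12.003, 11.74 and 11.90 with LPS, which overlapped (-0.15 ± 0.152, adjusted p = 0.468). Atp5g2, 1 of 3 genes for the c subunit of the membrane ring, fell by 0.47 ± 0.153 (adjusted p = 0.0357), from 10.74, 10.97 and 10.88 to 10.70, 10.32 and 10.14. Its other probe sets disagreed, at 0.33 and -0.52, and with the mean of its probe sets the call was lost (adjusted p = 0.232), so the value of Atp5g2 is uncertain.

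Of these 7 calls that of Ndufaf7 was kept in all 24 alternatives, while the calls of the other 6 were kept in 13 (Sdha) to 20 (Sdhb). The count rested on single arrays. Without LPS-treated +/- array 3 only Ndufaf7 was called, without array 2 of that group only Ndufaf7 and Sdhb, and without array 1 of that group 19 genes were called (1 up, Cox6b2, and 18 down). Quantile normalization called 17 (2 up, Ndufa7 and Cox6a2, and 15 down), cyclic loess 3 (1 up, Ndufa7, and 2 down), and a fit to these 6 arrays alone 3.

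**Figure D2:**
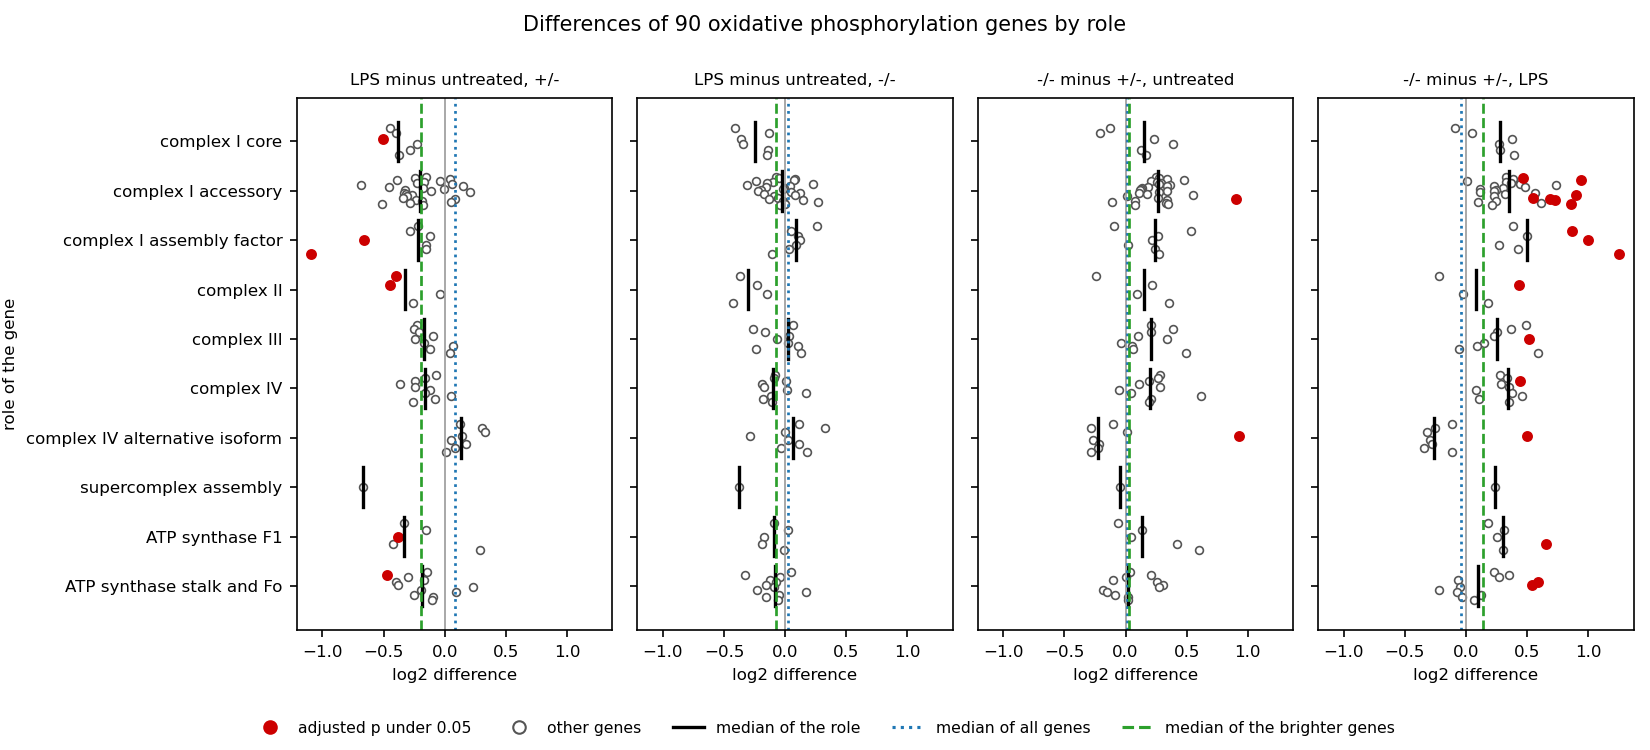
The 4 panels show the log2 difference (horizontal axis) of each of the 90 genes, grouped by role on the vertical axis, for LPS against untreated in each genotype and for -/- against +/- without and with LPS. Filled red points have an adjusted p under 0.05 by limma, black bars are the median of a role, the dotted line is the median of all genes and the dashed line that of the brighter genes. In the right panel 17 points are red and all of them lie above 0.

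The same comparison in -/- macrophages gave no call. With limma 0 of the 90 genes rose and 0 fell, against 3.69% and 5.18% of all genes (0 of 82 without dim genes, against 7.19% and 11.2% of the brighter genes). An unadjusted p under 0.05 was found for 6 genes of the set, again without a counted share of all genes. The median difference was -0.06 (57 genes below 0, 33 above), beside 0.02 over all genes and -0.07 over the brighter genes, and it was 0.01 with cyclic loess, where the genes that rose made up 53.6% of all called genes in place of 41.6%. Without overlap, 13 genes were lower after LPS and 1 was higher, against 15.7% and 12.6% of all genes, and the brighter genes were not counted in this way. The 4 genes with the smallest p were all lower, by 0.43 ± 0.157 for Sdhd, 0.41 ± 0.157 for Ndufs1, 0.37 ± 0.133 for Sdha and 0.35 ± 0.124 for Ndufs8, with adjusted p between 0.113 and 0.139. With array weights, which give noisier arrays less say, 8 genes were called, 7 of them down (Ndufs1, Ndufs7, Ndufs8, Sdha, Sdhb, Sdhd and Uqcr10) and Cox6a2 up.

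Sdha had 10.86, 10.62 and 10.81 without and 10.47, 10.30 and 10.41 with LPS in -/- cells, which did not overlap. Sdhb had 9.43, 9.21 and 9.43 without and 9.06, 9.18 and 9.14 with LPS (-0.23 ± 0.122, adjusted p = 0.332 by limma), and Sdhc 9.99, 9.73 and 9.53 without and 9.59, 9.69 and 9.51 with LPS (-0.15 ± 0.154, adjusted p = 0.694). Sdhd had 10.10, 9.93 and 10.22 without and 9.60, 9.55 and 9.82 with LPS. Of the 4 subunits of complex II only the arrays of Sdhc overlapped in -/- cells. Ndufaf7 had 7.62, 7.21 and 7.68 without and 7.47, 6.85 and 7.86 with LPS, which overlapped (-0.11 ± 0.236, adjusted p = 0.875), with treated array 2 lowest. Ndufaf4 had 7.23, 7.22 and 6.83 without and 7.21, 6.85 and 7.60 with LPS (0.12 ± 0.209, adjusted p = 0.837), with array 2 lowest and array 3 highest of the treated ones. Cyc1 had 10.01, 9.82 and 9.69 without and 9.88, 9.75 and 10.07 with LPS, and Atp5b 12.26, 12.20 and 12.05 without and 12.20, 12.11 and 12.26 with LPS, all overlapping.

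The isoforms of complex IV subunits gave no call with LPS in either genotype by limma, where the adjusted p of these genes in +/- cells lay between 0.071 and 0.957. In +/- and -/- cells in turn, Cox4i1 differed by -0.07 ± 0.155 and -0.08 ± 0.155 and its alternative Cox4i2 by 0.12 ± 0.131 and 0.11 ± 0.131. Cox6a1 differed by -0.37 ± 0.17 and -0.19 ± 0.17, and Cox6a2 by 0.30 ± 0.182 and 0.33 ± 0.182. Cox6b1 differed by -0.25 ± 0.163 and -0.17 ± 0.163, and Cox6b2 by 0.33 ± 0.152 and 0.00 ± 0.152. Cox7b differed by 0.05 ± 0.186 and -0.11 ± 0.186, and Cox7b2 by 0.05 ± 0.127 and 0.02 ± 0.127. Cox7a2 differed by -0.16 ± 0.165 and 0.17 ± 0.165, Cox7a1 by 0.14 ± 0.155 and -0.28 ± 0.155, and Cox7a2l in -/- cells by -0.38 ± 0.256. Cox8a differed by -0.08 ± 0.132 and -0.18 ± 0.132, Cox8b by 0.17 ± 0.159 and 0.11 ± 0.159, and Cox8c by 0.08 ± 0.158 and -0.04 ± 0.158. For Cox7b, Cox7a1, Cox7a2 and Cox8c the sign differed between genotypes, which the interaction test did not call. Ndufa4 differed by -0.26 ± 0.126 and -0.10 ± 0.126, and Ndufa4l2 by 0.01 ± 0.162 and 0.18 ± 0.162. In both genotypes the general form was below 0 and the alternative form above it for Cox4i1 with Cox4i2, Cox6a1 with Cox6a2, Cox8a with Cox8b and Ndufa4 with Ndufa4l2, and also for Cox6b1 with Cox6b2, although Cox6b2 lay at 0.00 in -/- cells. In each of these pairs the alternative form was the dimmer one, and a part of signal level was not tested.

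A call in +/- cells without a call in -/- cells does not show that the responses differed, and the direct test called none. For the interaction, the LPS response of -/- cells minus that of +/- cells, limma called 0 of 90 genes in either direction, against 0.306% of all genes up and 0.777% down, with 2 genes at an unadjusted p under 0.05. These were Ndufaf7 (0.98 ± 0.333, adjusted p = 0.22 by limma) and Ndufaf4 (0.78 ± 0.296, adjusted p = 0.288). The next by p were Cox7a1 (-0.43 ± 0.219, adjusted p = 0.498) and Ndufaf1 (0.48 ± 0.252, adjusted p = 0.508). The median interaction was 0.14 over the set, -0.02 over all genes and 0.12 over the brighter genes. No alternative called a member.

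Without LPS, -/- cells differed from +/- cells in 2 genes of the set. Cox7a1 and Ndufb9 rose and 0 fell, 2.22% of the set against 1.22% of all genes up and 1.44% down. An unadjusted p under 0.05 was found for 15 genes of the set, and the share of all genes under it was not counted. The median difference was 0.19 (71 genes above 0, 19 below), beside 0.01 over all genes and 0.03 over the brighter genes. Without overlap, 19 genes were higher in -/- cells and 2 were lower, against 9.64% and 8.35% of all genes. That share was not counted for the brighter genes. Among the brighter genes 2.56% rose, against 2.44% of the 82 genes of the set that passed that filter, so the share called was that of the background.

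Cox7a1, the isoform of a small complex IV subunit that heart and skeletal muscle use, had log2 signals of 6.02, 6.10 and 6.39 in untreated +/- cells, 6.47, 6.32 and 6.15 in LPS-treated +/- cells, 7.33, 6.96 and 7.01 in untreated -/- cells and 6.97, 6.64 and 6.84 in LPS-treated -/- cells. Every -/- array lay above every +/- array. Cox7a1 was 0.93 ± 0.155 higher in untreated -/- cells (1.91-fold, adjusted p = 0.0042 by limma) and 0.50 ± 0.155 higher after LPS (adjusted p = 0.042), and the call after LPS was kept in 11 of 23 alternatives, with adjusted p up to 0.158 in the others. Of 6 other genes that mark skeletal and cardiac muscle 0 passed between genotypes, with or without LPS. Its general counterpart Cox7a2 had 9.32, 9.13 and 8.84 in untreated +/- cells, 9.15, 8.65 and 9.01 in LPS-treated +/- cells, 9.30, 9.11 and 9.02 in untreated -/- cells and 9.31, 9.18 and 9.45 in LPS-treated -/- cells, and did not pass in either genotype comparison (0.05 ± 0.165, adjusted p = 0.96, and 0.37 ± 0.165, adjusted p = 0.152).

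Ndufb9, an accessory subunit at the tip of the complex I membrane arm, had 8.05, 7.53 and 7.86 in untreated +/- cells, 7.87, 8.06 and 7.76 in LPS-treated +/- cells, 8.83, 8.62 and 8.69 in untreated -/- cells and 8.38, 8.69 and 8.68 in LPS-treated -/- cells. Its genotype groups did not overlap, and it did not pass with LPS in either genotype (0.09 ± 0.156 and -0.13 ± 0.156). Ndufb9 was 0.90 ± 0.156 higher in -/- cells without LPS (1.87-fold, adjusted p = 0.00565 by limma) and 0.69 ± 0.156 higher with LPS (adjusted p = 0.00884). The untreated calls of Cox7a1 and Ndufb9 were kept in all 23 alternatives. The next by p were Cox7b, another small subunit of complex IV (0.62 ± 0.186, adjusted p = 0.116), and the core subunit Ndufs8 (0.39 ± 0.124, adjusted p = 0.143). Leaving out LPS-treated +/- array 2 called 4 genes in this comparison, Atp5e (adjusted p = 0.0405) and Cox7b (adjusted p = 0.041) with the 2, and array weights also called 4, with Atp5d and Cox7b.

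After LPS, more of the set was higher in -/- cells. With limma 17 of the 90 genes rose and 0 fell, 18.9% of the set against 9.69% of all genes up and 5.99% down. The 17 included 7 accessory subunits and 3 assembly factors of complex I, 3 subunits of the ATP synthase, and Sdhb, Uqcrc1, Cox5b and Cox7a1. The median difference was 0.28 (74 genes above 0, 16 below), beside -0.04 over all genes and 0.14 over the brighter genes. With cyclic loess the median of the set was 0.15, and the genes that rose made up 46.1% of all called genes in place of 61.8%. Without overlap, 40 genes were higher in -/- cells and 3 were lower, against 17.3% and 14.5% of all genes. For the brighter genes, whose median was itself above 0, the share without overlap was not counted, and a part of signal level in this was not tested. When dim genes were left out, 20 of 82 genes of the set rose (24.4%) beside 19.8% of the brighter genes, so the share called was close to theirs. The brighter genes were not matched in signal to the set, of which 67 of 90 genes lay in the top 25%.

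The assembly factors Ndufaf7 and Ndufaf4 had the largest differences, and all 7 assembly factors of complex I were above 0 (median 0.50). Ndufaf7, with the +/- values given above, had 7.47, 6.85 and 7.86 in LPS-treated -/- cells, of which the lowest (6.85) lay above the highest LPS-treated +/- array (6.47). It was 1.25 ± 0.236 higher (2.38-fold, adjusted p = 0.00276 by limma). Ndufaf4 was 1.000 ± 0.209 higher (adjusted p = 0.00549), with LPS-treated +/- arrays between 6.16 and 6.31 and -/- arrays between 6.85 and 7.60. Ndufaf2, a chaperone that holds the place of Ndufa12 until assembly is complete, had 6.84, 6.39 and 6.91 in untreated +/- cells, 6.73, 6.32 and 6.25 in LPS-treated +/- cells, 7.48, 7.36 and 6.91 in untreated -/- cells and 7.30, 7.07 and 7.51 in LPS-treated -/- cells. Its LPS-treated groups did not overlap, whereas its untreated groups did, and it was 0.86 ± 0.198 higher after LPS (adjusted p = 0.00939). For Ndufaf7 and Ndufaf4 this difference and the LPS response in +/- cells share the same 3 LPS-treated +/- arrays.

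All 28 accessory subunits of complex I were above 0, with a median of 0.35, and 7 rose. Ndufa12, the paralogue that takes the place of Ndufaf2 in the finished enzyme, had 8.11, 7.86 and 8.48 in untreated +/- cells, 8.06, 7.58 and 7.65 in LPS-treated +/- cells, 8.74, 8.82 and 8.33 in untreated -/- cells and 8.63, 8.53 and 8.94 in LPS-treated -/- cells. It was 0.94 ± 0.196 higher after LPS (1.92-fold, adjusted p = 0.00542 by limma), and in untreated cells 1 +/- array lay above 1 -/- array. Ndufb6, a subunit of the membrane arm, had 9.57, 9.22 and 9.52 in untreated +/- cells, 9.65, 8.76 and 9.09 in LPS-treated +/- cells, 10.22, 9.98 and 9.77 in untreated -/- cells and 10.00, 9.91 and 10.29 in LPS-treated -/- cells, and LPS-treated +/- array 1 lay well above the other 2 of its group. It was 0.90 ± 0.208 higher (adjusted p = 0.00992).

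Ndufs6, a zinc-binding subunit of the NADH-oxidising module, had 8.43, 7.49 and 7.58 in +/- and 8.70, 8.500 and 8.87 in -/- cells after LPS. The highest +/- array (8.43) lay just under the lowest -/- array (8.50), and its difference of 0.86 ± 0.275 lay at the threshold (adjusted p = 0.0499 by limma) and was kept in 6 of 23 alternatives. Ndufc1 had 9.75, 9.20 and 9.41 against 10.08, 10.18 and 10.27 and was 0.72 ± 0.178 higher (adjusted p = 0.0141). Its second probe set was 0.54 higher. Ndufb8, a further membrane arm subunit, had 7.55, 7.41 and 7.14 against 7.88, 7.87 and 7.98, with the -/- arrays close together and array 3 of +/- lowest, and was 0.55 ± 0.129 higher (adjusted p = 0.011). Ndufa10, named after its values were seen, was 0.47 ± 0.126 higher (adjusted p = 0.0223). Of the 6 core subunits 0 passed (2 at an unadjusted p under 0.05), with a median of 0.28 and Ndufs1 at -0.09 ± 0.157.

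**Figure D3:**
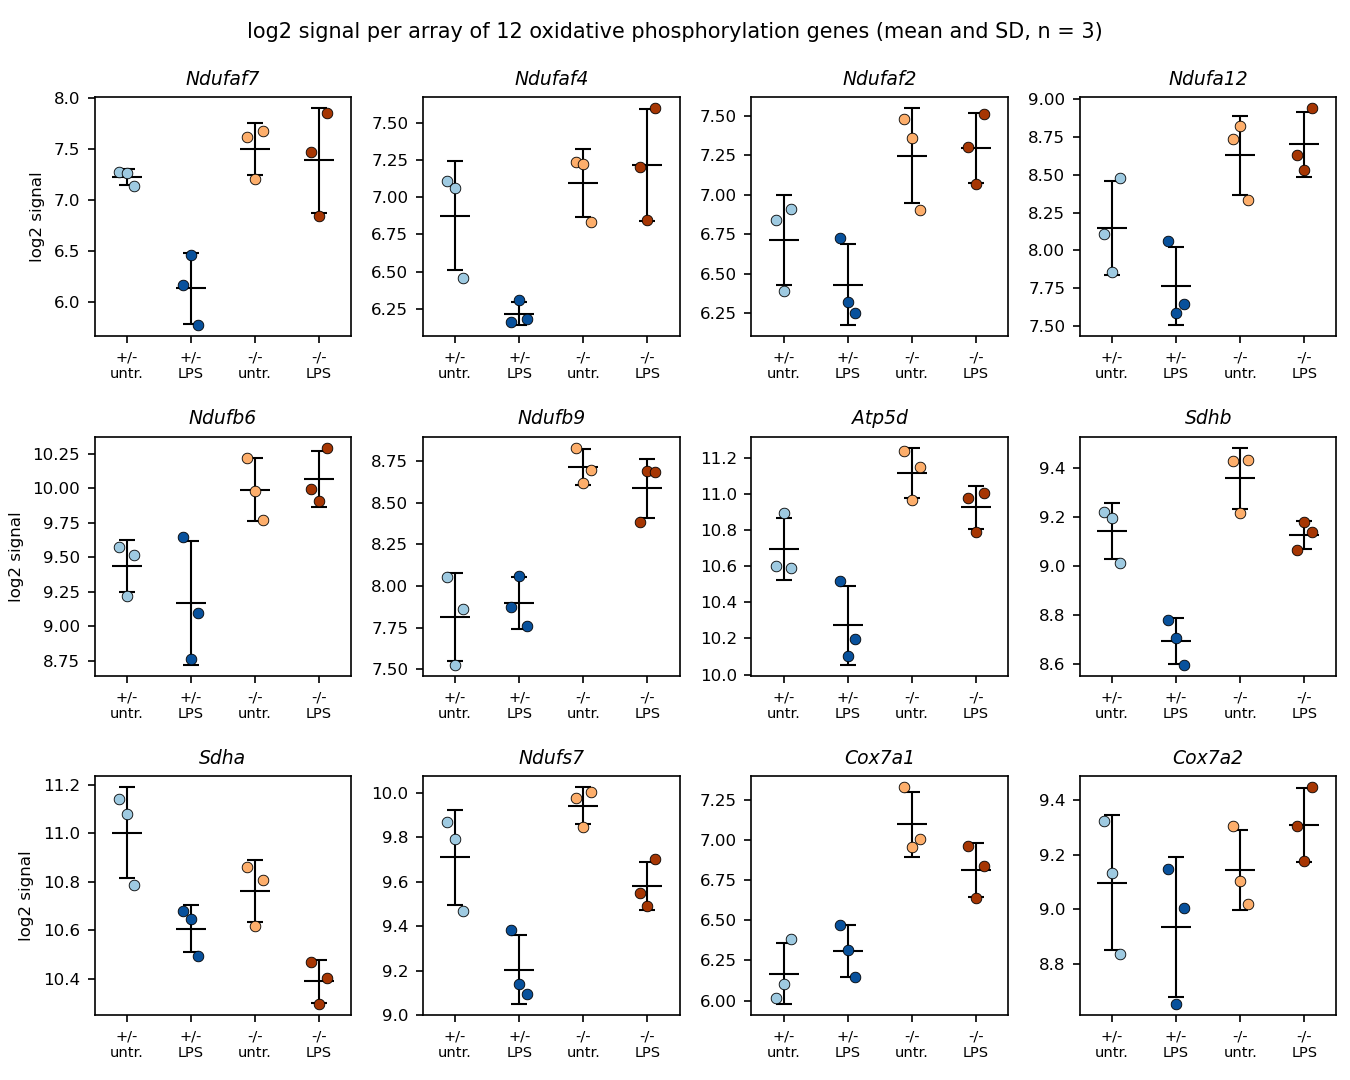
Each panel shows the log2 signal (vertical axis, not starting at 0) of 1 gene on the 12 arrays, by group on the horizontal axis; points are arrays, long bars the mean and whiskers the SD over 3 arrays. Ndufaf7 and Ndufaf4 are lowest in LPS-treated +/- cells, Ndufb9 and Cox7a1 are higher in both -/- groups, and Sdha is lower after LPS in both genotypes.

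In complex II the subunits lay on both sides of 0 after LPS. Sdhb was 0.43 ± 0.122 higher in -/- cells (adjusted p = 0.028 by limma), with 9.06, 9.18 and 9.14 against 8.78, 8.70 and 8.59 and no overlap. Sdha had 10.47, 10.30 and 10.41 against 10.68, 10.65 and 10.50, a difference of -0.22 ± 0.133 that did not pass although the arrays did not overlap (adjusted p = 0.309). Sdhc and Sdhd differed by -0.03 ± 0.154 and 0.18 ± 0.157 (adjusted p = 0.936 and 0.486). Without LPS the values were -0.24 ± 0.133 for Sdha, 0.22 ± 0.122 for Sdhb, 0.09 ± 0.154 for Sdhc and 0.35 ± 0.157 for Sdhd, and none passed. Sdha was the 1 subunit of complex II that was below 0 in both genotype comparisons.

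In complex III, Uqcrc1, a core protein on the matrix side and named after its values were seen, had 10.24, 10.18 and 9.91 in +/- and 10.56, 10.55 and 10.76 in -/- cells after LPS. It was 0.51 ± 0.158 higher (adjusted p = 0.0428 by limma), a call kept in 12 of 23 alternatives, with adjusted p up to 0.168 in the others. Cyc1 had 9.83, 9.26 and 9.13 against 9.88, 9.75 and 10.07, with +/- array 1 inside the range of the -/- arrays, a difference of 0.49 ± 0.193 that did not pass (adjusted p = 0.105). Without LPS Cyc1 differed by 0.20 ± 0.193 (adjusted p = 0.783). The median of the 9 genes of complex III was 0.25 after LPS.

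All 10 general subunits of complex IV were above 0 after LPS, with a median of 0.34, and Cox5b rose. Cox5b, a matrix-side subunit that binds zinc and was named after its values were seen, had 11.02, 11.08 and 11.08 in untreated +/- cells, 10.89, 10.76 and 10.81 in LPS-treated +/- cells, 11.28, 11.30 and 11.18 in untreated -/- cells and 11.28, 11.21 and 11.30 in LPS-treated -/- cells. It was 0.45 ± 0.11 higher (adjusted p = 0.0145 by limma), and its second probe set was 0.47 higher. Ndufa4, first assigned to complex I and now placed in complex IV, had 10.54, 10.44 and 10.39 against 10.74, 10.77 and 10.91, without overlap, and missed the threshold (0.35 ± 0.126, adjusted p = 0.0764).

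The alternative isoforms of complex IV stood on the other side of 0. Of these 8 genes Cox7a1 was above 0 and 7 were below 0 in LPS-treated -/- cells, with a median of -0.27 over the 8, and none of the 7 passed. By mean signal the 7 ranked at 6.9% (Cox7b2) to 57.6% (Cox6a2) of all genes, and the general subunits at 91.3% or above. The median difference was -0.04 over all genes and 0.14 over the brighter genes. Whether the sign went with the isoform or with the signal level was not tested. Cox6b2, a testis isoform, was -0.32 ± 0.152 (adjusted p = 0.187 by limma), while the general Cox6b1 was 0.35 ± 0.163 (adjusted p = 0.168). Cox6a2, of heart and muscle, was -0.26 ± 0.182 (adjusted p = 0.389), and Cox6a1 was 0.29 ± 0.17 (adjusted p = 0.294). Cox4i2, an isoform of lung that hypoxia raises, was -0.11 ± 0.131 (adjusted p = 0.614), beside 0.28 ± 0.155 for the general Cox4i1 (adjusted p = 0.265). None of these 6 genes passed.

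For the remaining isoforms the same held. Ndufa4l2, a paralogue induced by hypoxia, was -0.11 ± 0.162 (adjusted p = 0.693 by limma). Cox7b2 was -0.30 ± 0.127 (adjusted p = 0.138) at signals of 2.54 to 3.10, which is dim on every array, and Cox7b was 0.45 ± 0.186 (adjusted p = 0.121). Cox8b and Cox8c were -0.27 ± 0.159 and -0.34 ± 0.158 (adjusted p = 0.28 and 0.168), beside 0.11 ± 0.132 for Cox8a (adjusted p = 0.643). Cox8c passed as lower when LPS-treated +/- array 1 was left out (-0.49, adjusted p = 0.0467). Cox7a2l was 0.24 ± 0.256 (adjusted p = 0.582).

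Without LPS the isoforms gave a like picture, with Cox7a1 as the only one that passed. The differences of the other alternative isoforms were -0.10 ± 0.131 for Cox4i2, -0.28 ± 0.182 for Cox6a2, 0.01 ± 0.152 for Cox6b2, -0.27 ± 0.127 for Cox7b2, -0.22 ± 0.159 for Cox8b, -0.23 ± 0.158 for Cox8c and -0.28 ± 0.162 for Ndufa4l2. Those of the general forms were 0.29 ± 0.155 for Cox4i1, 0.11 ± 0.17 for Cox6a1, 0.28 ± 0.163 for Cox6b1, 0.21 ± 0.132 for Cox8a and 0.19 ± 0.126 for Ndufa4. All of these 5 general forms lay above 0, and 6 of the 7 alternative isoforms below it. The lowest adjusted p among these 12 genes was 0.412, for Cox7b2.

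In the ATP synthase 3 subunits rose after LPS in -/- against +/- cells. Atp5d, the delta subunit of the central stalk, had 10.60, 10.89 and 10.59 in untreated +/- cells, 10.52, 10.10 and 10.20 in LPS-treated +/- cells, 11.24, 10.97 and 11.15 in untreated -/- cells and 10.98, 10.79 and 11.01 in LPS-treated -/- cells. Neither pair of genotype groups overlapped, and the difference was 0.65 ± 0.148 after LPS (adjusted p = 0.00869 by limma) and 0.42 ± 0.148 without it (adjusted p = 0.2). Atp5j, coupling factor F6 of the outer stalk, had 10.68, 10.18 and 10.32 against 11.002, 10.79 and 11.15 and was 0.59 ± 0.155 higher (adjusted p = 0.0199). Atp5j2, subunit f of the membrane part, had 9.47, 9.66 and 9.54 against 10.15, 10.04 and 10.09 and was 0.54 ± 0.153 higher (adjusted p = 0.0287). In both of them every LPS-treated -/- array lay above every LPS-treated +/- array.

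No other gene of the enzyme passed after LPS. Atp5b had 12.003, 11.74 and 11.90 against 12.20, 12.11 and 12.26, without overlap, and a difference of 0.31 ± 0.152 that did not pass (adjusted p = 0.193 by limma). Without LPS Atp5b differed by 0.14 ± 0.152 (adjusted p = 0.823). The 12 genes of the stalks and the membrane part had a median of 0.09, with 7 above 0 and 5 below, down to -0.22 ± 0.14 for Atp5l, subunit g, whose probe sets disagreed. The 5 genes of the catalytic head and central stalk were all above 0 (median 0.31).

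The calls of Ndufaf7, Ndufaf4, Ndufa12, Ndufb9 and Atp5d after LPS were kept in all 23 alternatives, and those of the other 12 in 6 (Ndufs6) to 22 (Ndufaf2 and Ndufb6). The total rested on single arrays. Without LPS-treated -/- array 3 those 5 genes alone were called, and the adjusted p of the 12 others lay between 0.0525 and 0.178. Without LPS-treated -/- array 1 10 genes were called, without LPS-treated +/- array 3 8, and without LPS-treated +/- array 1 23 (22 up and Cox8c down). Array weights called 31, and 9 were called when the spread of signals was made alike on all arrays, an alternative chosen after seeing the data.

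**Figure D4:**
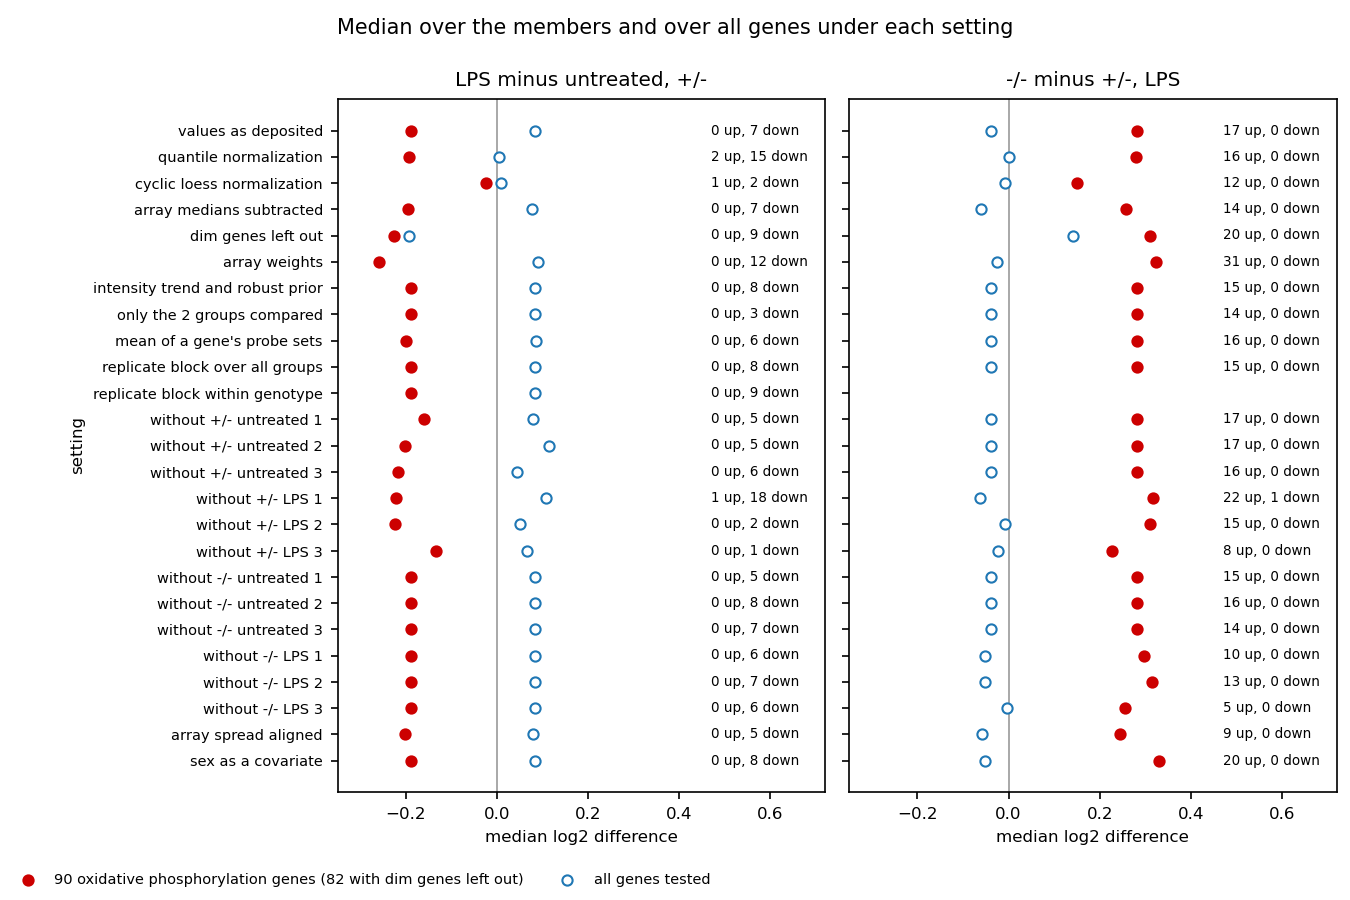
For LPS against untreated in +/- cells (left) and -/- against +/- after LPS (right), red points are the median log2 difference (horizontal axis) of the oxidative phosphorylation genes and open points that of all genes tested under each setting on the vertical axis; the text at the right of each row counts the genes of the set called up and down. The medians change most with cyclic loess (-0.02 and 0.15), and the counts move with single left-out LPS-treated arrays and with array weights.

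**Figure D5:**
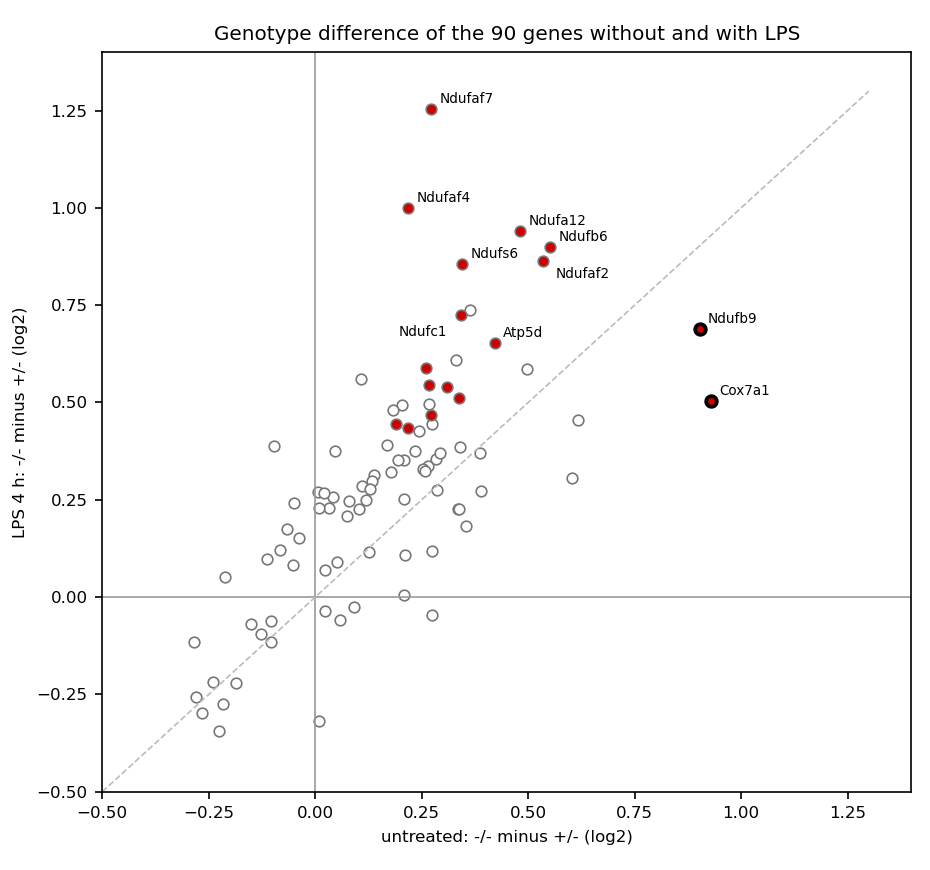
Each point is 1 of the 90 genes, with the log2 difference between -/- and +/- cells without LPS on the horizontal and with LPS on the vertical axis; red points passed after LPS, points with a thick edge passed without it, and the dashed line marks equal differences. Of the 90 genes 66 lie above 0 on both axes and 11 below 0 on both, Ndufaf7 and Ndufaf4 lie far above the line, and Cox7a1 and Ndufb9 below it.

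The genotype comparisons without and with LPS share no array, but same-numbered +/- arrays deviated together (correlations of 0.243, 0.327 and 0.223 over all genes), so the comparisons are not separate. Of the 90 genes 66 were higher in -/- cells in both, and 11 were lower in both. The 2 genes called without LPS, Cox7a1 and Ndufb9, were also called with it, Cox7a1 in 11 of 23 alternatives. The LPS comparisons in the 2 genotypes share no array either, and 51 genes were lower and 14 higher after LPS in both. Genes of the set share their arrays, so these counts are not counts of independent events.

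Read against the promoter letters, 4 of the 15 genes with the NRF1 site (Atp5c1, Atp5g2, Ndufaf4 and Sdha) fell with LPS in +/- cells and 3 of the 58 without it did (medians -0.37 and -0.22). After LPS 2 of the 15 rose in -/- against +/- cells, Ndufaf4 and Ndufs6, and 14 of the 58 without the site (medians 0.35 and 0.31). Of the 13 genes with the ETS letters 0 fell with LPS in +/- cells, and 2, Atp5j and Ndufb6, were higher in -/- cells after LPS. Ndufb9 is not among the genes matched to a promoter. These counts are a description and were not tested.

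Other genes on which the system depends were taken from 6 lists written by hand. Their counts stand beside 15.5% of all genes and 29.6% of the brighter genes that fell with LPS in +/- cells, and 9.59% and 13.2% that rose. In -/- cells 5.18% and 11.2% fell and 3.69% and 7.19% rose. Between genotypes after LPS 9.69% and 19.8% were higher and 5.99% and 10.1% lower in -/- cells. Without LPS 1.22% and 2.56% were higher and 1.44% and 2.92% lower in -/- cells. The shares of the brighter genes come from the fit without dim genes, whereas the lists were counted in the main fit and not filtered. In the main fit 2949 of the 10697 brighter genes fell and 1299 rose with LPS in +/- cells. Between genotypes after LPS 1857 of them were higher and 993 lower in -/- cells in that fit. The lists were not tested against these shares. Of 39 assembly factors outside the name rule, 12 fell and 4 rose with LPS in +/- cells, near the share of the brighter genes, and 10 were higher and 4 lower in -/- than in +/- cells after LPS (medians -0.38 and 0.37). Tmem126b, which works in assembly of the complex I membrane arm, fell by 1.63 with LPS in +/- cells (adjusted p = 2.81e-06 by limma) and by 0.92 in -/- cells (adjusted p = 0.000976). Cox18, which inserts a complex IV subunit, rose (1.19 ± 0.194, adjusted p = 0.000544), and Bcs1l, which completes complex III, fell (-0.996 ± 0.235, adjusted p = 0.00679). After LPS Sdhaf1, which helps Sdhb take up its clusters, was higher in -/- cells (1.20 ± 0.185, adjusted p = 0.000658), whereas Cox15, of heme a synthesis, and Coa5 were lower (-0.998 ± 0.168, adjusted p = 0.00125, and -0.99 ± 0.154, adjusted p = 0.000687). In -/- cells Ttc19, of complex III, rose with LPS (0.55 ± 0.138, adjusted p = 0.0229). Without LPS 0 of the 39 passed between genotypes by limma.

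Of 20 genes for cytochrome c, ubiquinone and other electron donors, 3 rose and 3 fell with LPS in +/- cells, 2 rose and 1 fell in -/- cells, and 2 without and 4 with LPS were higher in -/- than in +/- cells. Gpd2, the mitochondrial glycerol 3-phosphate dehydrogenase that feeds ubiquinone, rose with LPS in both genotypes (1.96 ± 0.202, adjusted p = 1.15e-05 in +/- by limma, and 1.66 ± 0.202, adjusted p = 0.000128 in -/-). Coq10a, a ubiquinone-binding protein, fell in both (-1.98 ± 0.168, adjusted p = 2.08e-06, and -1.03 ± 0.168, adjusted p = 0.0014), while its paralogue Coq10b rose in both (1.31 ± 0.141, adjusted p = 1.78e-05, and 0.84 ± 0.141, adjusted p = 0.00182). Gpd2 and Coq10a thus changed in opposite directions with LPS. Sqor, the sulfide quinone oxidoreductase, was higher in -/- cells both untreated (0.79 ± 0.192, adjusted p = 0.0438) and after LPS (1.07 ± 0.192, adjusted p = 0.00191). Coq10b was higher without LPS (0.64 ± 0.141, adjusted p = 0.0252), and after LPS Coq10a and Dhodh, of pyrimidine synthesis, were higher (1.24 ± 0.168, adjusted p = 0.000243, and 0.60 ± 0.164, adjusted p = 0.0243).

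Of 25 genes of pyruvate dehydrogenase and the citric acid cycle, 11 fell (against 29.6% of the brighter genes) and 0 rose with LPS in +/- cells, 3 fell and 1 rose in -/- cells, and after LPS 6 were higher and 1 lower in -/- than in +/- cells. The largest falls were of Pdp1, a pyruvate dehydrogenase phosphatase (-1.12 ± 0.165, adjusted p = 0.000239 by limma), Pdk2, a pyruvate dehydrogenase kinase (-0.98 ± 0.244, adjusted p = 0.00948), and Idh2, the mitochondrial NADP-dependent isocitrate dehydrogenase (-0.81 ± 0.205, adjusted p = 0.0102). In -/- cells they were of Pdp1 (-1.14 ± 0.165, adjusted p = 0.000503), Pdk2 (-0.84 ± 0.244, adjusted p = 0.0465) and Pdp2 (-0.59 ± 0.163, adjusted p = 0.037). A phosphatase and a kinase that oppose each other on pyruvate dehydrogenase were thus both lower in both genotypes. After LPS Pcx, pyruvate carboxylase (0.99 ± 0.214, adjusted p = 0.00659), and Idh2 (0.84 ± 0.205, adjusted p = 0.013) were higher in -/- cells and Pdk3 was lower (-0.74 ± 0.196, adjusted p = 0.021).

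Of 16 regulators of respiratory genes, 1 rose and 5 fell in +/- and 1 rose and 1 fell in -/- cells with LPS. Hif1a, which represses respiration in favour of glycolysis, rose in both (1.37 ± 0.153, adjusted p = 2.43e-05 by limma, and 1.596 ± 0.153, adjusted p = 1.43e-05). Gabpb2, a GABP partner subunit, and the coactivator Ppargc1b fell in +/- cells (-0.79 ± 0.169, adjusted p = 0.00361, and -0.71 ± 0.179, adjusted p = 0.00979), and the corepressor Nrip1 fell in -/- cells (-0.65 ± 0.147, adjusted p = 0.0132). After LPS the coactivator Pprc1 and the factor Yy1 were higher in -/- than in +/- cells (1.11 ± 0.24, adjusted p = 0.00652, and 0.63 ± 0.131, adjusted p = 0.00496), and Nrip1 was lower (-0.65 ± 0.147, adjusted p = 0.00884).

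Of 12 genes of mitochondrial DNA maintenance and transcription 5 fell in +/- cells (against 29.6% of the brighter genes), led by the transcription factor Tfb2m (-1.38 ± 0.355, adjusted p = 0.0112 by limma), the helicase Twnk (-1.09 ± 0.188, adjusted p = 0.000807) and the methyltransferase Tfb1m (-0.87 ± 0.259, adjusted p = 0.0245), and 2 fell in -/- cells, Polg2 and Mgme1 (-0.65 ± 0.145, adjusted p = 0.0112, and -0.57 ± 0.149, adjusted p = 0.0276). After LPS the topoisomerase Top1mt and Twnk were higher in -/- cells (0.87 ± 0.198, adjusted p = 0.00926, and 0.76 ± 0.188, adjusted p = 0.0145). Of 11 carriers and porins Slc25a5, an ADP/ATP carrier, fell with LPS in +/- cells (-0.62 ± 0.183, adjusted p = 0.0232). The porin Vdac3 rose with LPS in -/- cells (0.65 ± 0.167, adjusted p = 0.025), and Vdac3 and Vdac2 were higher in -/- than in +/- cells after LPS (0.72 ± 0.167, adjusted p = 0.00967, and 0.67 ± 0.153, adjusted p = 0.00939). No gene of the last 3 lists, nor of the citric acid cycle list, passed between genotypes without LPS by limma.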

How the data were processed

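The deposited table holds 1 log2 signal for each probe set and array. The authors made these log2 values with RMA in affy, per the submitters' processing notes. Software versions, settings, the chip description file and any genome build were not given in the sources used here. RMA as usually run pulls the arrays to a common distribution and shrinks differences of dim probe sets. The deposited arrays did not share 1 distribution. Their medians ran from 5.19 to 5.37 and their interquartile ranges from 3.19 to 3.80. Of 28193 probe sets 21648 had 1 symbol in the platform's annotation, which can be old, 1313 had several and 5232 had none. The brightest probe set stood for each of 954 genes that had more than 1, which gave 19945 genes.

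A mean per group was fitted to all 12 arrays with limma 3.58.1 in R 4.3.3 (lmFit and eBayes without trend). The p-values of each of 5 contrasts received a Benjamini-Hochberg adjustment across the 19945 genes, with a threshold of 0.05, and the step was tested on simulated data. Errors of differences are standard errors. Counts at an unadjusted p under 0.05, for the set or for a role, have no share of all or of brighter genes beside them. Such shares were not counted, so these counts show no excess or lack. Tables and figures were made with Python 3.11.15, pandas 2.3.3, numpy 2.4.6 and matplotlib 3.10.9. The number of arrays limits the precision. Members and lists were chosen with earlier results of these data known. Genes were named when they were among the 12 largest called changes in each direction of a contrast, or among the 4 with the smallest p where fewer than 4 passed. The complex II subunits, Cyc1, Atp5b and the isoform pairs were named in every contrast, and of each other list the 3 largest called changes.

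Replicate numbers in the labels are shared by the groups. The deviations of same-numbered arrays from their group means correlated at 0.243, 0.327 and 0.223 between the +/- groups, over all genes. These deviations correlated at 0.0898, 0.195 and -0.122 between the -/- groups and lower across genotypes. The labels do not say what a number shares, so the main fit had no replicate block. Its standard errors and p-values take no account of a pairing, and the block was run only as an alternative. The alternatives were other normalizations, array weights, a filter on dim genes, a trend with a robust prior, the mean of the probe sets, fits to 2 groups, the replicate block and each array left out. Alignment of the spread of the arrays and sex as a covariate were added after seeing the data.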

Additional observations from a re-analysis of the deposited data

How the results depend on the processing

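The direction of each called gene was kept under every alternative run, while counts of called genes depended on single arrays and on the scaling. For LPS in +/- cells, where 7 genes were called, quantile normalization gave 17, cyclic loess 3, array weights 12, and a fit to the 2 groups alone 3, and leaving out single arrays gave 1 to 19. For LPS in -/- cells, where 0 were called, array weights gave 8 and leaving out single arrays 0 to 0. For the untreated genotype comparison, where 2 were called, array weights gave 4 and leaving out single arrays 2 to 4. For the genotype comparison after LPS, where 17 were called, array weights gave 31, alignment of the spread of the arrays 9, and leaving out single arrays 5 to 23. The interaction called 0 under all alternatives, with single arrays left out 0 to 0. The cause of these shifts was not tested.

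With the replicate number as a block over all groups the counts were 8, 0, 2, 15 and 0 in the same order, and with the block within genotype, which keeps the pairing of the +/- arrays, they were 9 for LPS in +/- and 0 in -/- cells. With a block Ndufs1 and Cox7a2l gained a call with LPS in +/- cells, and after LPS the genotype calls of Uqcrc1 (adjusted p = 0.0552 by limma) and Ndufs6 (adjusted p = 0.0746) were lost; no other call changed. Sex as a covariate gave 8, 2 and 20 for LPS in +/- cells and the genotype comparisons without and with LPS. The male arrays were 1 in each +/- group and 0 in each -/- group. After LPS the genotype calls of Atp5j2, Cox7a1 and Ndufs6 were lost with sex fitted (adjusted p 0.0569 to 0.0684 by limma). Atp5b, Cox7a2, Cyc1, Ndufa8, Ndufb3 and Ndufs7 gained a call as higher, with adjusted p from 0.0184 (Cyc1) to 0.0497 (Ndufb3). Over the named genes and alternatives 2995 values kept their side of the threshold or their size, 119 lost it, 26 gained it and 32 moved by more than their standard error. With 3 arrays a group, differences of dim genes such as Cox7b2 and Cox8b were not well measured.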

Other observations

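Some probe sets of the same system carry 2 symbols and stand for no single gene. The brightest of 3 shared by Cox7c, a small subunit of complex IV, and Gm12338 differed by -0.19 and 0.07 on the log2 scale with LPS in +/- and -/- cells, and by 0.33 and 0.60 between genotypes (-/- minus +/-) without and with LPS. The brighter of 2 shared by Ndufb4, an accessory subunit of complex I, and Ndufb4b differed by -0.39, 0.07, 0.31 and 0.77 in the same order. These values were not tested.

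Of the 90 genes 17 had more than 1 probe set, with 24 beside those used. The sign of the difference was that of the probe set used for 19 of 24 with LPS in +/- cells, 17 in -/- cells, 13 between genotypes without LPS and 16 after it. The widest gap in a difference between probe sets of 1 gene was 0.87 (log2), between genotypes without LPS.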
